A study of Macaca mulatta with 8 samples.

Results

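FOXP2 and FNDC1 are 2 of the 26533 features of the count matrices, found by their symbols. They were chosen by their measured rod UMI counts, since earlier results of these data had placed them among the genes lower in rods of the mScarlet blebs than in rods of uninjected retina of the same animal. That contrast is therefore described here without a test. The questions asked of it were whether the lower level was found in all rods or in some of them, whether rods holding transgene RNA differed from rods without it, and what the other retinal classes held.

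FOXP2 is a forkhead transcription factor, known for its part in speech and vocal learning, which pairs with its relatives FOXP1 and FOXP4 on DNA. FNDC1 encodes a protein with fibronectin type III domains, a fold shared with fibronectin and the tenascins of the extracellular matrix. Rods are the photoreceptors of dim light. They capture light in their outer segments and signal to rod bipolar cells.

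The data are 8 single-cell 5′ libraries of retinal punches from 2 wild-type male rhesus macaques. NHP1 (5 years old) received AAV2-CAG-hRPE65 under the retina of both eyes, and its 2 libraries, 1 per eye, are labelled uninjected. NHP2 (6 years old) received AAV8-GRK1-hRPGR and AAV8-GRK1-mScarlet in separate blebs of each eye, and gave an uninjected, an hRPGR and an mScarlet library from each eye. By the paper the mScarlet vector was of laboratory grade and given at a lower dose than the hRPGR vector, which was of engineering grade. Transgene, dose and preparation thus cannot be told apart. mScarlet is a red fluorescent reporter, the RPGR transgene is codon-optimised and counted as coRPGR, GRK1 is a photoreceptor promoter and CAG a ubiquitous one. All eyes had triamcinolone, a corticosteroid, beside the globe, and the left eyes also had repeated intravitreal adalimumab, an antibody against TNF, so eye and adalimumab cannot be told apart. The 2 libraries of a group are the eyes of 1 animal, and p-values between areas or eyes measure only the spread between such libraries. In the splits of rods within libraries the spread is pooled over all genes.

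The libraries held 90634306 to 146519011 UMIs (unique molecular identifiers, each standing for 1 captured RNA molecule). After filters 83192 cells remained, of which 39924 lay in clusters named rod-like from rod markers, 3676 to 6158 per library at a median of 4682 to 7309 UMIs. Their leading genes included NRL and PDE6G, and PDE6G stood at 3677 to 9105 scaled CPM. Some labels were not borne out by the transgene counts. In free RNA (barcodes of 100 to 1000 UMIs) the right uninjected library of NHP2 held coRPGR at 299.8 CPM (UMIs scaled to a common total, as counts per 1e6) and the left one held none, and the left NHP1 library held huRPE65 at 452 CPM. Results that rest on these libraries are given per eye. Pairs of libraries shared at most 255 cell barcodes.

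FOXP2 (ENSMMUG00000008005) lies on the plus strand of chromosome 3, chr3:140320963-140912806 in Mmul_10, a span of 592 kb. FNDC1 (ENSMMUG00000000500) lies on the minus strand of chromosome 4, chr4:11315638-11418553, a span of 103 kb. Both spans are the RefSeq gene, introns included. The 250 bases before annotated transcript starts are shown because both genes were lowest in the same libraries. FOXP2 has an upstream start and a group of starts inside the gene, and 1 window of each is given. Capitals mark the one match, on either strand, to the motifs searched, which were TAATCC (CRX), TTCNNNGAA (GAS element), TGTTTAC (forkhead) and the interferon-stimulated response element (ISRE).

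FOXP2 upstream start, chr3:140320713-140320962, plus strand: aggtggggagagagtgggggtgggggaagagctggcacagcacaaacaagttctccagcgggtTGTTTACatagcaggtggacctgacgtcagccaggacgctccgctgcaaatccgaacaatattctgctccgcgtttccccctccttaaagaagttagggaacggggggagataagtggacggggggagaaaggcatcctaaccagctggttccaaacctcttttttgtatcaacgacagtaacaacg
FOXP2 internal start, chr3:140635882-140636131, plus strand: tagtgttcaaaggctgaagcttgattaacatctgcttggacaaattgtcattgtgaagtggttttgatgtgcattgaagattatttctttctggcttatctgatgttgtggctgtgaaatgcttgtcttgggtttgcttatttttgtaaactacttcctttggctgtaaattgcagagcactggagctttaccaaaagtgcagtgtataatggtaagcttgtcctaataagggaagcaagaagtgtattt
FNDC1 outermost start, chr4:11418554-11418803, minus strand: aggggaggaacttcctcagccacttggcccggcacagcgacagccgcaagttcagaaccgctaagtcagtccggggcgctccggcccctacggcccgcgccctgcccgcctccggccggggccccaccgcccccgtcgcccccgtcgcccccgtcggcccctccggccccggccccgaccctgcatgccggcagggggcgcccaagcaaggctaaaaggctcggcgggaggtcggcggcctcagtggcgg

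G and C made up 54.0% of the upstream FOXP2 window, 37.6% of the internal one and 76.8% of the FNDC1 window, with 11, 0 and 30 CpG pairs. TGTTTAC began 187 bases before the upstream FOXP2 start, and 2.61% of 21102 windows of that length before protein-coding genes held it. TAATCC was in 9.28% of those windows, TTCNNNGAA in 5.98% and the ISRE in 3.01%, and none of these was in the 3 windows shown. A match is a description of letters only.

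In rods FOXP2 was among the more abundant RNAs and was lowest in the mScarlet blebs. In the uninjected area of NHP2 it stood at 216 CPM in the right eye and 305 CPM in the left one, at 204 and 199 CPM in the hRPGR blebs and at 78.4 and 93.2 CPM in the mScarlet blebs. The NHP1 rods held 156 and 179 CPM. No 2 of the 4 groups overlapped, but how often that holds over all genes was not computed, so nothing is read from it. The left uninjected library stood above all others. The fitted log2 change of mScarlet against uninjected rods was -1.68 (SE 0.15, n = 2 libraries a group), a level 0.312 of the uninjected one.

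FNDC1 was less abundant than FOXP2 in all but the right NHP1 library and had the same lowest group. In uninjected rods it stood at 65.4 CPM on the right and 78.0 CPM on the left, in hRPGR rods at 45.1 and 49.1 CPM and in mScarlet rods at 24.5 and 17.4 CPM. The NHP1 rods held 163 and 116 CPM, above every NHP2 library. The groups did not overlap, with the same limit as for FOXP2. The fitted log2 change of mScarlet against uninjected rods was -1.85 (SE 0.18), a level 0.277 of the uninjected one. This contrast chose both genes, so nothing is read from the background, in which edgeR called 0.896% of 14511 genes at an adjusted p under 0.05 and 0.172% as lower, with 21.2% at an unadjusted p under 0.05. With the eye as replicate block the changes were -1.67 for FOXP2 and -1.86 for FNDC1, the genes called over the whole table went from 130 to 3, and neither FOXP2 nor FNDC1 was among the 3. Both mScarlet libraries lay below the other 4 NHP2 libraries for 12.7% of the genes tested.

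**Figure D1:**
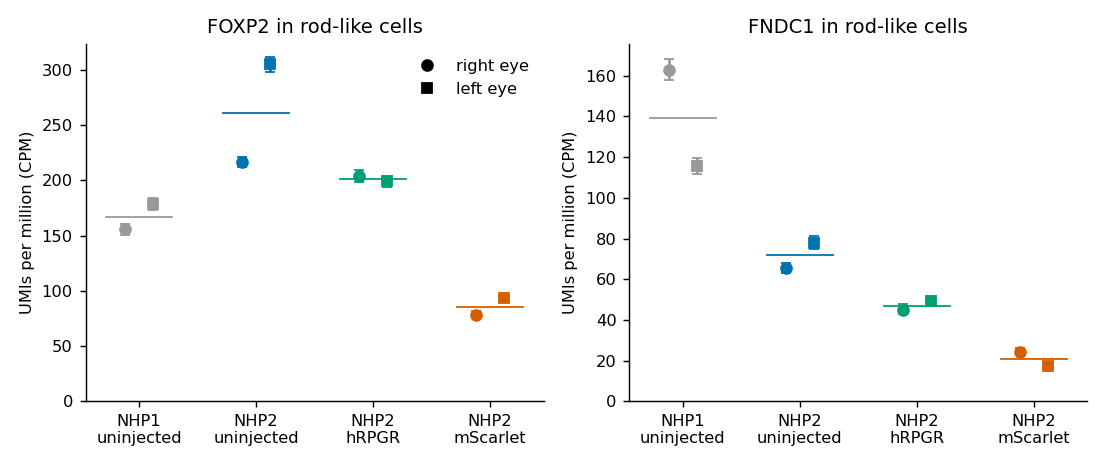
FOXP2 and FNDC1 in rod-like cells of the 8 libraries, in CPM. Bars are 95% Poisson intervals, which cover counting error only. Both genes are lowest in the 2 mScarlet libraries, and FNDC1 is highest in NHP1.

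Against the hRPGR rods of the same animal the mScarlet rods were at a log2 change of -1.24 (SE 0.15) for FOXP2 and -1.18 (SE 0.18) for FNDC1, which is again a description since the mScarlet libraries are shared (0% of genes called, 7.56% at an unadjusted p under 0.05). The hRPGR rods were at -0.44 (SE 0.15) for FOXP2 and -0.68 (SE 0.17) for FNDC1 against uninjected rods. Neither passed edgeR's quasi-likelihood test (edgeR adjusted p = 0.937 for each). The test called 0% of genes, and 717 of 14511 (4.94%), both members included, had an unadjusted p under 0.05. The uninjected libraries of this comparison are those on which the genes were chosen. By eye, after thinning to equal depth, hRPGR rods held FOXP2 at 0.997 of the uninjected level on the right and 0.613 on the left, and FNDC1 at 0.653 and 0.675.

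Left and right eyes, compared over the 3 areas of NHP2, differed by a log2 value of 0.21 (SE 0.10, left minus right) for FOXP2 and -0.05 (SE 0.16) for FNDC1. Neither passed the test (edgeR adjusted p = 1.00 for each, 0% of genes called, 131 or 0.903% at an unadjusted p under 0.05). The FNDC1 value changed sign with the fit, to 0.067 without the term for area. The 95% interval of the difference was -0.038 to 0.47 for FOXP2 and -0.45 to 0.35 for FNDC1.

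The first question, all rods or some, met rods of several states. Clusters were built without FOXP2, FNDC1 and the transgenes, and values by cluster are descriptions. In uninjected retina the largest rod cluster held FOXP2 at 269.6 CPM on the right and 356 CPM on the left, against 15.4 and 17.5 CPM in a cluster with more mitochondrial RNA (a median of 1.79% of UMIs against 0.819%). The 15.4 and 17.5 CPM lay below the free RNA of these libraries (47.4 and 59.1 CPM). FNDC1 differed far less between these clusters, at 67.1 and 81.1 CPM against 73.3 and 89.7 CPM. A further 6 clusters, left unnamed, had rod markers but hardly any mitochondrial RNA. Together they held FOXP2 at 716 and 1105 CPM and FNDC1 at 145 CPM in each eye. Most of these cells lay in 1 of the 6 clusters (341 of 426 on the right and 2572 of 2654 on the left). Some of the 6 held at least 50 cells only in NHP1 libraries. Other clusters went the other way, as a rod-like cluster with a median of 0.150% mitochondrial UMIs held FOXP2 at 199.96 and 244 CPM, and an unnamed one with 1.13% held it at 650.5 and 889.7 CPM. FOXP2 thus varied more between rod clusters of this area than FNDC1 did.

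Those unnamed clusters had the same lowest group. In the mScarlet blebs they held FOXP2 at 274 and 290 CPM and FNDC1 at 43.0 and 36.2 CPM, and in the hRPGR blebs FOXP2 at 776 and 728 CPM and FNDC1 at 89.8 and 95.4 CPM. The uninjected values given above exceed the mScarlet ones in both eyes for both genes. They numbered 426 and 2654 cells in the uninjected libraries against 542 and 407 in the mScarlet libraries. Most of the mScarlet cells (403 on the right and 363 on the left) lay in a different cluster from most of the uninjected ones.

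Rods of the mScarlet and uninjected areas lay mostly in different clusters, so few clusters allow a direct comparison. With at least 50 cells from each, 1 cluster of the right eye and 2 of the left could be compared, and only 1 of these bore a rod name. FOXP2 was at 0.350 of the uninjected level in the first and at 0.398 and 0.433 in the others, and FNDC1 at 0.405 and at 0.325 and 0.353. The cluster of the right eye was unnamed and led by haemoglobin genes, with 121 mScarlet and 76 uninjected cells. Its values rested on 32 against 57 FOXP2 UMIs and 13 against 20 FNDC1 UMIs. mScarlet and hRPGR rods shared more clusters. On the left, though, the largest clusters of hRPGR rods (31.5%, 22.2% and 19.2% of them) were those of uninjected rods. The left comparison thus leaves out most hRPGR rods, and some of its clusters held 51 to 78 hRPGR cells. FOXP2 was lower in mScarlet rods in 8 of 8 shared clusters of the right eye, and in 6 of 7 of the left eye. FNDC1 was lower in 8 of 8 on the right and in 6 of 7 on the left. Of these clusters 4 in each eye bore a rod name, and both genes were lower in all 4. One of the rest, another unnamed cluster led by haemoglobin genes, held too few UMIs for a ratio (FOXP2 1 in mScarlet against 18 in hRPGR rods on the right and 1 against 2 on the left, FNDC1 2 against 5 and 8 against 1). In the others FOXP2 was at 0.292 to 0.463 of the hRPGR level on the right and 0.586 to 1.00 on the left, and FNDC1 at 0.481 to 0.776 and 0.335 to 0.945. The 0.292 and 0.776 came from the first haemoglobin-led cluster, with 32 FOXP2 UMIs in mScarlet against 98 in hRPGR rods and 13 against 15 FNDC1 UMIs. On the left some ratios rested on as few as 8 FOXP2 or 9 FNDC1 UMIs in hRPGR rods.

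Each library's rods were also ranked by mitochondrial share and cut into 4 equal bins. In the bin with the lowest share FOXP2 stood at 61.9 CPM in the right mScarlet library against 218 CPM uninjected, and in the highest bin at 17.6 against 74.0 CPM. The 17.6 CPM lay below the free RNA of that library (24.0 CPM). Over the 4 bins FOXP2 was at 0.238 to 0.413 of the uninjected level on the right and 0.195 to 0.345 on the left. FNDC1 was at 0.328 to 0.390 on the right and 0.143 to 0.265 on the left. Each bin of each eye was lower for both genes. In all 6 NHP2 libraries FOXP2 was highest in a middle bin and lowest in the last, while FNDC1 was lowest in the first bin. Ranked by UMIs per cell instead, FOXP2 was at 0.207 to 0.400 and FNDC1 at 0.146 to 0.420 over the bins of both eyes.

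**Figure D2:**
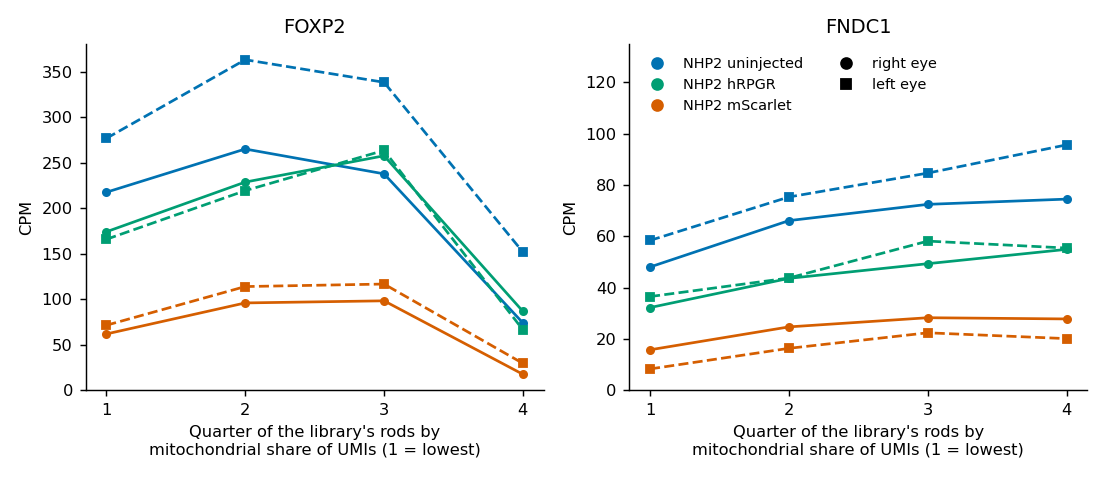
FOXP2 and FNDC1 (CPM) in rods of the 6 NHP2 libraries, in 4 equal bins of each library's rods ranked on the mitochondrial share of UMIs. The mScarlet lines are lowest in every bin. FOXP2 is lowest in the last bin of all 6 libraries, and FNDC1 in the first.

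The share of rods with a UMI was compared after thinning each rod to 3000 UMIs, which left out the 267 to 1019 rods per library with fewer (1019 in the right hRPGR library, with 4262 kept). For FOXP2 it was 33.7% and 47.7% in uninjected rods (right and left), 33.8% and 30.9% in hRPGR rods, and 14.1% (95% exact binomial interval 13.1 to 15.1) and 16.7% (15.7 to 17.8) in mScarlet rods. For FNDC1 it was 15.1% and 17.2%, then 9.90% and 11.6%, then 5.88% (5.20 to 6.62) and 4.27% (3.72 to 4.87). Bipolar-like cells, set beside them as a class low in both RNAs, gave 2.40% to 6.17% for FOXP2 and 0.121% to 1.34% for FNDC1 in the NHP2 libraries, and the mScarlet rods stood above the bipolar-like cells of their own library for both genes. Unthinned median depth in NHP2 was 6586.5 to 7593 UMIs in bipolar-like cells and 4682 to 6549 UMIs in rods.

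These shares were set beside 2 calculations from the uninjected rods of the same eye, each with the observed mScarlet mean. In the first every uninjected UMI is kept with 1 probability, as if all rods were lowered alike, and in the second a part of the rods is set to 0 and the rest left as they were. On the right the share of rods with a FOXP2 UMI was 14.1%, against 15.9% for all rods alike and 11.3% for part of the rods at 0. The share with at least 3 was 1.26% (0.953 to 1.64), against 0.558% and 2.24%. The left eye had the same order, with 16.7% between 20.2% and 13.5% and, at 3 or more, 1.84% between 0.639% and 2.89%. FOXP2 lay between the calculations at each step in both eyes. At 2 or more UMIs on the right, though, the interval (3.18 to 4.33) held the value for all rods alike (3.19%). Both calculations start from the cluster mix of uninjected rods, and rods of the 2 areas lay mostly in different clusters. The part of that mix in the shape was not tested.

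For FNDC1 the calculations were too close to be told apart at 1 UMI. The observed share was 5.88% on the right, against 6.47% for all rods alike and 5.67% for part of the rods at 0, and 4.27% on the left, against 4.60% and 3.89%. On the right both calculated values lay within the interval of the observed one, and likewise on the left. At 2 or more UMIs FNDC1 lay between the calculations, at 0.941% against 0.550% and 1.12% on the right and at 0.531% against 0.233% and 0.817% on the left. The interval of the right value (0.676 to 1.28) held the calculation with part of the rods at 0, and that of the left value (0.347 to 0.777) held neither.

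**Figure D3:**
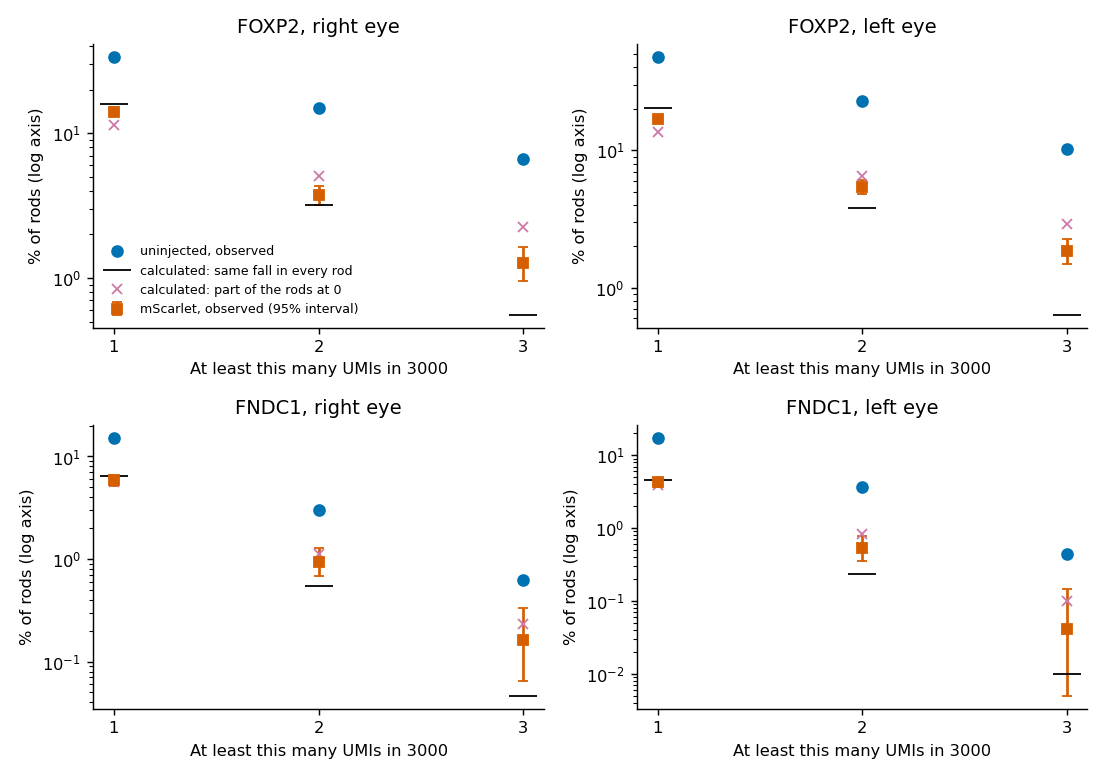
Percent of rods with at least 1, 2 or 3 UMIs of FOXP2 or FNDC1 at 3000 UMIs per rod, in the uninjected and mScarlet areas of each eye, with exact 95% intervals on the mScarlet values and both calculated forms beside them. Observed FOXP2 shares lie between the form with all rods lowered alike and the form with part of the rods at 0.

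The second question was whether transgene UMIs matter. mScarlet UMIs were found in 49.0% and 43.5% of thinned rods of the right and left mScarlet libraries. FOXP2 stood at 70.9 CPM in the 2134 rods with such a UMI and at 61.2 CPM in the 2221 rods without one on the right, and at 87.1 CPM in 2128 rods against 79.3 CPM in 2767 on the left. Uninjected rods at the same depth held 196 and 291 CPM. Rods without an mScarlet UMI were thus at 0.312 and 0.272 of the uninjected level, and rods with one at 0.361 and 0.299.

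FNDC1 followed the same order. It stood at 25.1 CPM with and 22.1 CPM without an mScarlet UMI on the right and at 18.01 and 14.7 CPM on the left, against 62.8 and 71.3 CPM in uninjected rods. Rods without the UMI were at 0.351 and 0.206 of the uninjected level. The difference between rods with and without the UMI was a log2 value of 0.13 (SE 0.07) for FOXP2 and 0.20 (SE 0.13) for FNDC1, higher with the UMI in 2 of 2 libraries for each. Neither passed the test (edgeR adjusted p = 0.610 and 0.779), which called 0.654% of 11627 genes, 0.482% as lower (8.08% at an unadjusted p under 0.05). The 95% intervals were 0.0014 to 0.27 and -0.06 to 0.46, from a spread pooled over all genes. Mitochondrial genes gave 0.716% of UMIs in rods with the UMI and 0.845% in rods without it on the right. On the left they gave 0.700% and 0.733%. The part of this in the differences was not tested. Without thinning, where deeper cells are more often counted as having the UMI, the values were 0.57 (edgeR adjusted p = 2.01e-13) and 0.30 (adjusted p = 0.0226), both in the same direction.

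By number of mScarlet UMIs (0, 1, 2, and 3 or more) FOXP2 stood at 61.2, 69.0, 71.0 and 75.2 CPM on the right and at 79.3, 84.5, 94.2 and 86.0 CPM on the left. FNDC1 stood at 22.1, 25.4, 24.3 and 25.5 CPM on the right and at 14.7, 16.1, 19.2 and 23.2 CPM on the left. In no bin of either eye was a member below the rods with 0 mScarlet UMIs. At this depth a rod without an mScarlet UMI may still hold the transgene. Bipolar-like cells of these libraries held an mScarlet UMI in 0.849% and 1.5% of cells, and free RNA held it at 56.9 and 58.4 CPM. The part of free RNA in the rod counts was not tested.

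**Figure D4:**
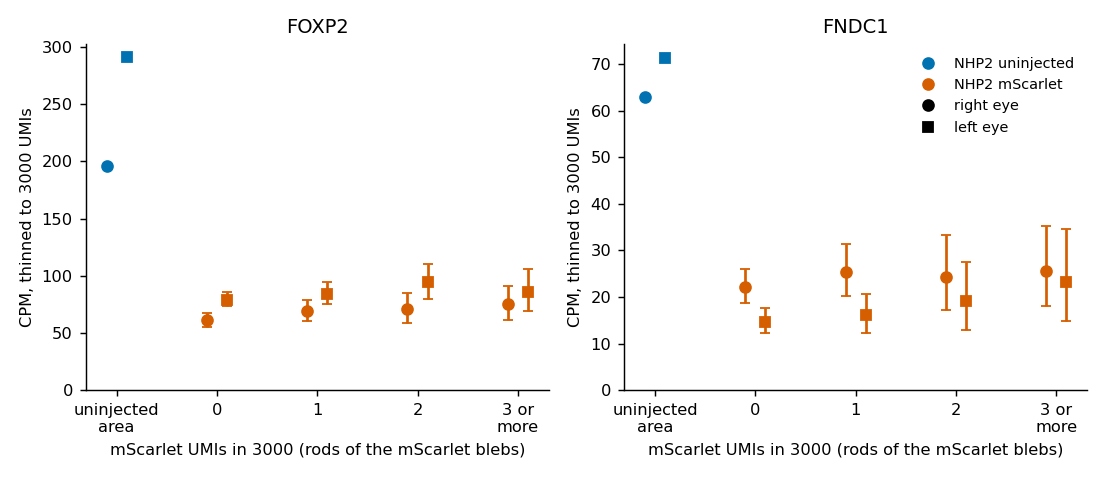
FOXP2 and FNDC1 (CPM at 3000 UMIs per rod) in mScarlet rods by number of mScarlet UMIs, beside uninjected rods of the same eye, with 95% Poisson intervals. Every mScarlet bin, that with 0 UMIs included, lies below the uninjected rods.

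In the hRPGR blebs a coRPGR UMI in a rod need not come from that rod. Free RNA held coRPGR at 3482 CPM on the right and 2251 CPM on the left, against 3858 and 1400.3 CPM in the rods, and 55.1% and 24.2% of thinned bipolar-like cells had a coRPGR UMI. The split is given as values. FOXP2 stood at 199 CPM in 4144 rods with a coRPGR UMI and at 105 CPM in the 118 without one on the right, and at 153 CPM in 3188 rods against 222 CPM in 1811 on the left. FNDC1 stood at 41.3 against 31.1 CPM on the right and at 41.9 against 59.1 CPM on the left. Over both libraries the log2 differences were -0.13 (SE 0.16) and -0.39 (SE 0.18), neither past the test (edgeR adjusted p = 1.00 for each, 0.283% of 11675 genes called, 0.0171% as lower, 2.5% at an unadjusted p under 0.05). These SEs use a spread pooled over all genes, while the 2 libraries gave opposite signs for both genes. The FOXP2 difference turned to 0.22 without thinning. In the left library rods with the UMI had a median of 5067.5 UMIs before thinning and those without it 6473.

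Transgene UMIs were also found outside the labelled blebs. In the right uninjected library FOXP2 stood at 189.9 CPM in the 811 rods with a coRPGR UMI and 198 CPM in the 4683 without one, and FNDC1 at 52.2 and 64.6 CPM. In the left NHP1 library FOXP2 stood at 170.1 CPM in 1162 rods with a huRPE65 UMI and 176 CPM in 2247 without one, and FNDC1 at 108 and 116 CPM. In the right mScarlet library rods with a coRPGR UMI held FOXP2 at 27.2 CPM, from 11 UMIs, and the 4220 rods without one at 67.2 CPM, with FNDC1 at 19.8 CPM, from 8 UMIs, and 23.7 CPM. In the left hRPGR library 16 rods with an mScarlet UMI held FOXP2 at 312.5 CPM, from 15 UMIs, and the other 4983 at 178 CPM, with FNDC1 at 1 UMI in the 16. These are single libraries and carry no test.

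Some interferon-response genes were higher in mScarlet than in uninjected rods. Of 42 measured genes of that list 7 passed the test as higher and 0 as lower, where 0.724% of all genes were called higher, and the list's median log2 change was 2.78 against 0.00 over all genes. With the eye as block 2 of the list were called, and without either mScarlet or either uninjected library 0 were, while 32 were called without either hRPGR library. B2M, the light chain of MHC class I, went from 35.1 and 39.3 to 919 and 1052 scaled CPM (log2 change 4.72, edgeR adjusted p = 0.0339). TAPBP, which helps load peptides on MHC class I, was at 0.98 (edgeR adjusted p = 0.103). In this comparison the list was higher where both members were lower. In hRPGR rods, cut into 4 equal bins ranked on the list, mean interferon UMIs per rod ran from 3.36 to 15.9 on the right. On the left they ran from 0.178 to 5.93. FOXP2 in hRPGR rods was at 0.997 of the uninjected level on the right and 0.613 on the left, and FNDC1 at 0.653 and 0.675. The part of the list in the member levels was not tested.

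Within the mScarlet libraries the rods were also split by this list. FOXP2 stood at 64.6 CPM in interferon-high and 67.3 CPM in interferon-low rods on the right, and at 80.3 and 84.5 CPM on the left. FNDC1 stood at 21.4 and 25.7 CPM on the right and at 13.6 and 18.1 CPM on the left. The log2 differences were -0.08 (SE 0.07, edgeR adjusted p = 0.634) and -0.33 (SE 0.13, adjusted p = 0.103), lower in 2 of 2 libraries for each gene, in a test that called 6.83% of 11603 genes and 3.65% as lower (17.9% at an unadjusted p under 0.05). Neither member passed. The lowest of 4 equal bins of mScarlet rods ranked on these genes, with a mean of 5.02 and 4.54 interferon UMIs per rod, held FOXP2 at 69.8 and 86.1 CPM. The highest such bins of uninjected rods, with means of 5.70 on the right and 3.33 on the left, held 205 and 291 CPM. Those of the hRPGR rods, with means of 15.9 on the right and 5.93 on the left, held 172 and 132 CPM. The part of the list in these levels was not tested.

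Across classes the order of levels differed between the genes. In uninjected NHP2 retina FOXP2 was highest in the unnamed rod clusters, then in rods and then in Müller glia, with no overlap among the 3. RPE-like, vascular-like and T/NK-like cells, each from 77 UMIs or fewer per library, overlapped the Müller glia. For FNDC1 the order was the unnamed rod clusters, the rods and the horizontal-like cells, again with no overlap among them, and RPE-like cells (0 and 47.8 CPM) overlapped the horizontal-like cells. How often classes lie apart like this over all genes was not computed, so nothing is read from the lack of overlap. Bulk sums of a class cannot tell fewer expressing cells from less RNA per cell.

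Müller glia, the radial support cells of the retina, held FOXP2 at similar levels in all areas. It stood at 116 and 130 CPM uninjected, 116 and 103 CPM in the hRPGR blebs and 127 and 120 CPM in the mScarlet blebs, and in NHP1 at 150 and 96.3 CPM. The log2 change of mScarlet against uninjected was -0.11 (SE 0.16, 95% interval -0.47 to 0.26, edgeR adjusted p = 0.829), and 0.0015 without TMM scaling. The test called 1.08% of 12496 genes, 0.416% as lower (14% at an unadjusted p under 0.05). Whether this change differs from that in rods was not tested, since the rod contrast chose the gene.

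FNDC1 was scarce in Müller glia. It stood at 3.73 and 7.19 CPM uninjected, from 13 and 60 UMIs, and at 0.949 and 0.517 CPM in the mScarlet blebs, from 4 and 2 UMIs. The log2 change was -3.02 (SE 0.61) and did not pass the test (edgeR adjusted p = 0.0747). It passed in 3 alternatives, at adjusted p = 0.0271 with DESeq2, 7.6e-06 without the filter on low counts and 0.00994 without the right uninjected library. Free RNA held FNDC1 at 19.9 and 45.0 CPM in the uninjected and 6.69 and 5.31 CPM in the mScarlet libraries, above the Müller glia of each. FOXP2 in free RNA was 47.4 and 59.1 CPM uninjected and 24.0 and 27.6 CPM with mScarlet. In the hRPGR libraries free RNA held FOXP2 at 57.9 and 84.9 CPM and FNDC1 at 25.7 and 19.6 CPM, so free RNA was lowest in the mScarlet libraries, as the rods were, but did not follow the rods between hRPGR and uninjected areas, except for FNDC1 on the left. Its part in the other classes was not tested.

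Bipolar-like cells, which relay photoreceptor signals, held FOXP2 at 17.3 and 35.6 CPM uninjected and 17.5 and 12.5 CPM with mScarlet (log2 change -0.84, SE 0.39, edgeR adjusted p = 0.476). FNDC1 there was 2.42 and 7.12 CPM against 1.94 and 1.76 CPM (-1.37, SE 0.59, edgeR adjusted p = 0.449), with 0.733% of 12965 genes called, 0.116% as lower (10.8% at an unadjusted p under 0.05). All these levels were below the free RNA of their library. Without the filter on low counts both passed, at edgeR adjusted p = 0.000202 and 0.0353. Without the left uninjected library the changes were -0.24 (FOXP2) and -0.41 (FNDC1).

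Cone-like cells held FOXP2 at 3.31 and 15.2 CPM uninjected and 5.81 and 2.40 CPM with mScarlet (-1.15, SE 1.07, edgeR adjusted p = 0.671), and FNDC1 at 0.788 and 3.15 CPM against 1.07 CPM and 0 (-1.61, SE 1.14, adjusted p = 0.572), with 0.101% of 11899 genes called, 0% as lower (14.1% at an unadjusted p under 0.05). The 0 came from 131 cells, and its exact Poisson interval reached 1.27 CPM. FOXP2 passed without the filter on low counts (edgeR adjusted p = 0.00419) and turned to 0.29 without the left uninjected library. The cones are photoreceptors in which the GRK1 promoter is also active, and 47.9% and 61.5% of thinned cone-like cells held an mScarlet UMI.

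Amacrine-like cells, the inhibitory interneurons, held FOXP2 at 21.4 and 92.0 CPM uninjected and 20.8 and 46.3 CPM with mScarlet (-0.86, SE 0.50, edgeR adjusted p = 0.849), and FNDC1 at 3.89 and 13.9 CPM against 10.96 and 8.09 CPM (-0.25, SE 0.51, adjusted p = 0.937), with 0.162% of 11100 genes called, 0.00901% as lower (5.43% at an unadjusted p under 0.05). Both values turned positive without the left uninjected library, to 0.68 and 1.16. In hRPGR against uninjected retina neither gene passed in cone-like, bipolar-like, Müller glia-like or amacrine-like cells (edgeR adjusted p = 0.863 to 1.00), where the test called 0.0084%, 0%, 0.016% and 0% of genes and 5.89%, 3.63%, 3.68% and 1.64% had an unadjusted p under 0.05.

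Horizontal-like cells, which carry lateral signals between photoreceptors, held FNDC1 at or above the level of free RNA in all 6 NHP2 libraries, at 38.6 and 54.96 CPM uninjected, 25.7 and 36.9 CPM with hRPGR and 48.1 and 22.9 CPM with mScarlet, from 22 to 46 UMIs per library. The mScarlet values overlapped those of both other areas, and the uninjected values lay above the hRPGR ones. Their FOXP2 stood at 26.6 and 42.3 CPM uninjected and 12.6 and 10.5 CPM with mScarlet. Myeloid-like cells held FOXP2 at 96.1 and 42.6 CPM uninjected and 17.5 and 13.3 CPM with mScarlet, from 24 to 81 UMIs. T/NK-like cells held it at 0 and 126 CPM uninjected and 4.35 and 3.42 CPM with mScarlet, from 19 UMIs or fewer, and the interval of the 0, from 24 cells, reached 42.5 CPM. Free RNA held FOXP2 at 47.4 and 59.1 CPM in the uninjected and 24.0 and 27.6 CPM in the mScarlet libraries. Every FOXP2 value given here lay below it, except those of right uninjected myeloid-like and left uninjected T/NK-like cells. A myeloid-like cluster of 1131 cells had rod markers as its next best match. These 3 classes were not tested.

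**Figure D5:**
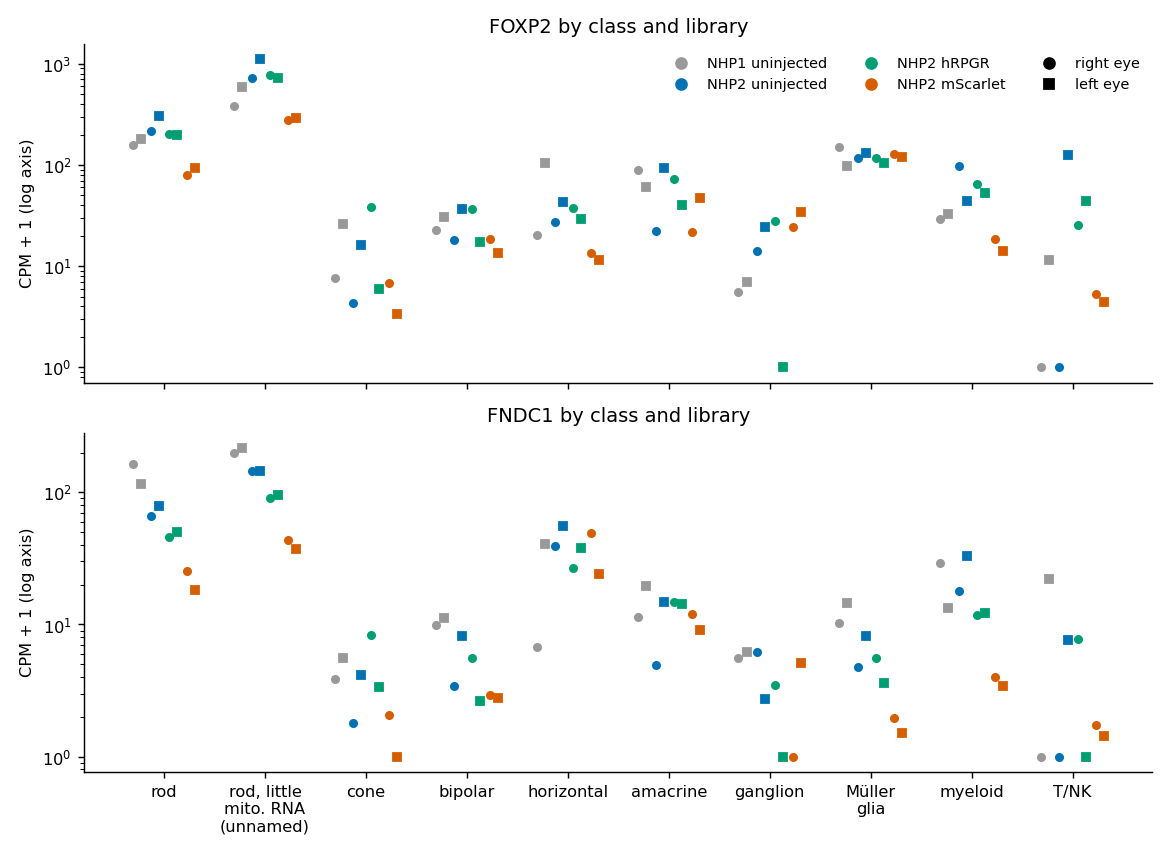
FOXP2 and FNDC1 (CPM + 1, log axis) by class and library. Rods and the unnamed rod clusters are lowest in the mScarlet libraries, and FOXP2 in Müller glia lies between 96.3 and 150 CPM in all 8 libraries.

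None of the relatives of FOXP2 passed the test between mScarlet and uninjected rods. FOXP1 was at 25.2 and 21.8 scaled CPM in uninjected and 27.8 and 23.2 in mScarlet rods (log2 change 0.11, edgeR adjusted p = 0.684). FOXP4 was at 2.09 and 2.77 against 1.29 and 1.86 (-0.63, adjusted p = 0.295). FOXP3, the factor of regulatory T cells, was at 1.32 and 1.42 against 1.92 and 1.32 (0.23, adjusted p = 0.704).

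Of 28 partners and reported targets of FOXP2, 20 were measured in rods, and 0 passed the test in either direction between mScarlet and uninjected rods, with a median log2 change of 0.05 (5 had an unadjusted edgeR p under 0.05, 2 higher and 3 lower, against 21.2% of all genes, of which 0.896% were called). The most abundant were the scaffold protein DISC1 (0.23, edgeR adjusted p = 0.373), the corepressor CTBP2 (0.32, adjusted p = 0.253) and the transcription factor MEF2C (-0.18, adjusted p = 0.233). In interferon-high against interferon-low mScarlet rods DISC1 was at a log2 difference of -0.19 (edgeR adjusted p = 4.84e-06), the one call among 17 tested genes of this list, in a test that called 6.83% of all genes. The call was lost with DESeq2 (adjusted p = 0.0683) and without the library term (edgeR adjusted p = 0.939), where 63 genes and 1 gene were called against 793.

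Of 17 genes of the fibronectin type III list 11 were measured. FNDC1 is left aside, since this contrast chose it. Of the others 0 passed the test between mScarlet and uninjected rods (2 had an unadjusted edgeR p under 0.05, against 21.2% of all genes). FNDC3A and FNDC3B, its relatives, were at log2 changes of 0.02 and -0.09 (edgeR adjusted p = 0.895 and 0.636). TNC, tenascin C of the extracellular matrix, was at 0 and 0.292 scaled CPM uninjected and 1.45 and 2.47 with mScarlet (adjusted p = 0.161 by edgeR), from few UMIs. In the interferon split it held 13 UMIs in high and 9 in low rods on the right and 30 and 2 on the left (log2 difference 2.18, edgeR adjusted p = 0.000109, with 6.83% of all genes called). That call was lost without the library term (edgeR adjusted p = 0.939), DESeq2 gave it no adjusted p, and without thinning the difference was 0.83 (edgeR adjusted p = 0.0275).

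Of 31 measured rod identity genes 0 passed the test between mScarlet and uninjected rods in edgeR (13 were lower and 1 higher at an unadjusted p under 0.05, against 21.2% of all genes in either direction), with a median log2 change of -0.34. SAG, arrestin, was at -0.61 (edgeR adjusted p = 0.159) and PDE6G, the inhibitory subunit of the phosphodiesterase, at -0.98 (adjusted p = 0.137), the lowest of the list.

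The pattern over the 8 rod sums most like that of FOXP2, by Pearson r of log2 CPM over 8700 genes, was that of MCM4, a subunit of the replicative helicase (0.965), then SPOPL (0.954), GLCE (0.949), JCAD (0.948) and HDAC9 (0.945). For FNDC1 it was that of SLC6A6, the taurine transporter (0.998), then GTF3C4 (0.995), TOP2B (0.993), TAFA4 (0.992) and C2CD5 (0.987). FOXP2 and FNDC1 had r = 0.676 with each other. The 8 points are areas of 2 animals and share library and depth, so these are descriptions. Between mScarlet and uninjected rods the fitted log2 changes of these genes ran from -0.75 (GLCE) to -0.19 (MCM4), with no test, since the genes were picked on the same rod sums.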

How the data were processed

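Single-cell 5′ libraries of 8 retinal punches were analysed. The deposited values are unfiltered UMI counts, which the authors made with Cell Ranger on a macaque Mmul_10 reference with coRPGR, huRPE65 and mScarlet added. Whether introns and strand were used in counting is not given in the sources used here. Both genes and all lists were chosen with earlier results of these data known.

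Barcodes were kept from 1500 UMIs and 300 genes upward, if mitochondrial genes gave no more than 20% of UMIs (91796). The 8604 cells with the highest scrublet scores were removed as doublets (0.8% per 1000 cells of a library). Cells were clustered without the 2 members and the transgenes (scanpy 1.11.5, leidenalg 0.10.2, 3000 variable genes, 40 components, resolution 2). Of 62 clusters 45 were named from markers and 17 were not, among them 6 rod clusters with little mitochondrial RNA. Also unnamed were a cluster of 2311 cells nearest to cones and clusters of 2306 and 404 cells nearest to Müller glia. They are not in the cone and Müller glia values. Clustering with doublets kept named a cluster of 2438 cells cone and another of 2393 cells Müller glia, with similar leading genes.

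Counts were summed per library and class and tested with edgeR 4.0.16 (quasi-likelihood, TMM, filterByExpr, Benjamini-Hochberg at 0.05, R 4.3.3) over the 6 NHP2 libraries, with all groups sharing 1 estimate of the spread. SE is the log2 change over the root of F, and intervals use the t quantile at the degrees of freedom of the fit. CPM is UMIs of a gene scaled to a common class total, and scaled CPM uses TMM totals. Within-library splits used rods thinned to 3000 UMIs, with library as a term. Alternatives were DESeq2 1.42.0, no TMM, no filter, each library left out, eye as block, doublets kept, thinning to 2000 UMIs or none, and other sets of rod clusters. The scripts were tested on simulated data.

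Libraries of an area in the left and right eye come from the same animal, and the labels pair areas by eye. The left-minus-right deviations correlated over 8755 genes at -0.33 (uninjected and hRPGR), 0.26 (uninjected and mScarlet) and 0.07 (hRPGR and mScarlet).

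The text names both members, the transgenes, all FOXP relatives, genes of the partner and fibronectin lists called in a rod contrast, the 3 most abundant of each list and the 5 genes most like each member. Some genes this rule names are not reported here. Sequences and gene spans are from the RefSeq Mmul_10 genome and annotation. Intervals and floors cover counting error only.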

Additional observations from a re-analysis of the deposited data

Results flagged for a closer look

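Rods split by a coRPGR UMI gave values of opposite sign in the 2 eyes. Such a UMI need not come from the rod itself. In the right library coRPGR made up 3482 CPM of free RNA and 3858 CPM of rod RNA, in the left one 2251 and 1400.3 CPM, and 55.1% and 24.2% of thinned bipolar-like cells had one. The log2 difference (with over without) of FOXP2 was 0.93 in the right hRPGR library and -0.54 in the left, and that of FNDC1 was 0.41 in the right and -0.49 in the left. The difference between the eyes was not tested, as each eye gave 1 hRPGR library. The right values rest on 118 rods without a coRPGR UMI, which held 37 FOXP2 and 11 FNDC1 UMIs.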

How the results depend on the processing

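Over the alternatives 147 tested values kept their direction and side of the threshold and 65 values given without a test stayed within the spread, while 13 moved (10 of them in the mScarlet rod contrasts), 13 reversed and 8 became called. Tested values could change in size and still keep their side. In mScarlet against uninjected retina, over all alternatives, cone FOXP2 ran from -2.37 to 0.29 and bipolar FOXP2 from -1.41 to -0.24. Bipolar FNDC1 ran from -2.15 to -0.41 and Müller FOXP2 from -0.39 to 0.024. With the low-mitochondrial rod clusters counted as rods, FOXP2 was at -2.04 against uninjected and -1.60 against hRPGR rods, and with all unnamed rod-marker clusters, a choice made after seeing the data, at -2.05 and -1.62. Genes called between mScarlet and uninjected rods numbered 130, and 1361 with DESeq2, 57 without TMM, 1009 without the filter, 3 with the eye as replicate block, 27 and 39 with the added clusters, 4 without the right and 0 without the left uninjected library, 1218 and 1139 without the right or left hRPGR library, and 0 without either mScarlet library. The eye block left neither member among those 3 and changed no other call of a member. With 0 genes called, neither member was called without either mScarlet or the left uninjected library. The left-right difference of FNDC1 was 0.067 with no replicate block. Without the filter on low counts these became called: cone FOXP2 at -1.17, bipolar FOXP2 at -0.84 and FNDC1 at -1.37, and Müller FNDC1 at -3.02. Müller FNDC1 was at -3.04 with DESeq2, and Müller FOXP2 at 0.0015 without TMM. Without thinning the mScarlet UMI difference was 0.57 for FOXP2 and 0.30 for FNDC1, the coRPGR UMI difference of FOXP2 was 0.22 (0.0047 with DESeq2), and the ratio of FOXP2 shares was 0.443 in place of 0.384. The causes were not tested.

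Leaving out each library in turn, mScarlet against uninjected rods ranged from -1.86 to -1.46 (FOXP2) and -2.15 to -1.61 (FNDC1), and mScarlet against hRPGR rods from -1.47 to -0.93 (FNDC1). The left-right difference of FNDC1 ran from -0.18 to 0.18. Against uninjected, cone FOXP2 ran from -2.07 to 0.29 and cone FNDC1 from -6.32 to -0.38. In the same contrast bipolar FOXP2 ran from -1.25 to -0.24 and bipolar FNDC1 from -1.93 to -0.41. Müller FOXP2 ran from -0.22 to 0.024 and Müller FNDC1 from -3.50 to -2.35. Amacrine FOXP2 ran from -1.58 to 0.68 and amacrine FNDC1 from -0.56 to 1.16. The mScarlet UMI difference of FOXP2 ran from 0.14 to 0.21, and the coRPGR UMI differences from -0.54 to 0.93 (FOXP2) and -0.49 to 0.41 (FNDC1).

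Groups have 2 libraries of 1 animal, and rods of the areas fall in different clusters. FNDC1 rested on 60 UMIs or fewer per NHP2 library in cones, bipolar cells, Müller glia and amacrine cells, and no detection limit was computed.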

Other observations

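At 3000 UMIs per rod, FNDC1 UMIs were in 14.5% of uninjected right rods with a FOXP2 UMI and 15.4% of the others, and in 17.3% and 17.1% on the left. In mScarlet rods the shares were 7.34% and 5.64% on the right and 5.13% and 4.10% on the left.

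In hRPGR rods cut into 4 equal bins by interferon-response UMIs, FOXP2 stood at 172 CPM in the highest bin and 219 CPM in the lowest on the right, and at 132 and 182 CPM on the left.

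Gene span was set beside the changes between mScarlet and uninjected rods. Among the 667 tested genes spanning at least 300 kb, as FOXP2 does, 11 were called, 2 of them lower, and the median log2 change was 0.05. Among the 1963 genes of 100 to 300 kb, as FNDC1 is, 17 were called, 6 of them lower, and the median was -0.05. The 2 and the 6 called lower include FOXP2 and FNDC1, which this contrast chose, so nothing is read from these counts. Of 5492 genes under 30 kb 47 were called, 1 of them lower, and of 3873 genes of 30 to 100 kb 22 were, 10 of them lower. Over all genes tested 0.896% were called and 0.172% called lower. A span was found for 82.7% of the genes tested.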
